A study of Mus musculus with 6 samples.

Results

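The genes described here act in the nucleolus, where ribosomal RNA is transcribed and the precursors of the ribosomal subunits are put together. They were taken from a list of 45 names chosen for that function, with earlier results of these data already known. A gene was measured where a probe set carried exactly 1 gene symbol and that symbol was on the list, and the brightest such probe set was used. By this rule 44 of the 45 were found among 22180 genes, and Npm3 was not analysed here. The cells were prostate epithelial cancer cells from Rb1F/F:Trp53F/F:PB-Cre4 mice, in which Cre under a probasin promoter removes both floxed tumour suppressor genes from prostate epithelium. Both groups share that background. PIM1 cells (3 arrays) were infected with a lentivirus for PIM1, a serine/threonine kinase, and EV cells (3 arrays) with a lentivirus of the empty vector. Whether the cells were 1 clone, and whether the arrays of a group came from separate cultures or infections, is not stated in the labels, so each p-value rests on a spread between arrays that may be purely technical. The age of the mice is not given.

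Ribosome biogenesis starts with RNA polymerase I, which makes 1 long precursor RNA. Small nucleolar ribonucleoproteins (snoRNPs) then guide its chemical modification: box C/D particles direct ribose methylation and box H/ACA particles direct pseudouridylation. A large assembly, the small-subunit processome, folds and cuts the small-subunit part, while a separate set of factors matures the large subunit. Many of these genes are well-known targets of the transcription factor MYC, and enlarged nucleoli are a textbook feature of prostate cancer cells.

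The promoters of 39 of the 45 genes were listed in RefSeq (GRCm38.p6), as windows of 250 bases before and 50 after the start. A few are shown for genes named in the results. Nop56 and Nop58, partners in one particle, moved in opposite directions, and Ncl fell strongly. Utp18 and Mybbp1a moved in opposite directions and hold forms of the MYC-binding E-box. The Utp18 call held in 12 of 13 alternative fits, but that of Mybbp1a in only 5 of 13. The 250 bases before the start are printed, and capitals mark matches, on either strand, to the E-box CACGTG, to its variant CACGCG or to the ETS core CCGGAA. Nop56 (chr2:130274162-130274411, plus strand) and Ncl (chr1:86359456-86359705, minus strand) hold none of these letters in the printed part. Nop58 (chr1:59684756-59685005, plus strand) holds CCGGAA at 2 places, Utp18 (chr11:93885767-93886016, minus strand) holds CACGTG and CCGGAA, and Mybbp1a (chr11:72441077-72441326, plus strand) holds CACGCG on both strands, in overlap.
Nop56: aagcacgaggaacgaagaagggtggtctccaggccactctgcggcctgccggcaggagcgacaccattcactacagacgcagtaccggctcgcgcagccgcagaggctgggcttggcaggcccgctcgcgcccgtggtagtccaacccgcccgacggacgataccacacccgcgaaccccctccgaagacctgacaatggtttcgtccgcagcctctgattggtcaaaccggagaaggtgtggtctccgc
Nop58: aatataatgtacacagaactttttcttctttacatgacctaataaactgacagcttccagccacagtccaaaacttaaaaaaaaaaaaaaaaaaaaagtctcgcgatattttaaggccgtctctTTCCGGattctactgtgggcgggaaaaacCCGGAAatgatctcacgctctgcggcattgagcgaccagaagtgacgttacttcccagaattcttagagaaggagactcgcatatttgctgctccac
Ncl: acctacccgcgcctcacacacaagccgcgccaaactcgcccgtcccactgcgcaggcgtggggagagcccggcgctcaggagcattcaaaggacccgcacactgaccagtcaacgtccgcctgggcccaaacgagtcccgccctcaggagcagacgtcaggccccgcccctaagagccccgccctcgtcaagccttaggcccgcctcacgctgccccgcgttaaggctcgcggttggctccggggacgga
Utp18: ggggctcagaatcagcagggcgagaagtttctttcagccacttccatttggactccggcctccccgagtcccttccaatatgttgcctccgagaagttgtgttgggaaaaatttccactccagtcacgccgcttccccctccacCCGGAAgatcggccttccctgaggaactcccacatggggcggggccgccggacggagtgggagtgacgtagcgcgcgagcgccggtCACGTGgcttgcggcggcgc
Mybbp1a: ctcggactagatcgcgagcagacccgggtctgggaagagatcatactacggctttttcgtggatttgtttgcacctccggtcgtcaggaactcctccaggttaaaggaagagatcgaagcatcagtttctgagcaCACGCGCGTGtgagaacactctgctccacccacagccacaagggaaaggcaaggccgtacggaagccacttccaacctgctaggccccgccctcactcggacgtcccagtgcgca

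In the whole windows, both strands counted, the E-box CACGTG was found in 7 of 43 promoters of these genes (16.3%), against 7.15% of all 32851 promoters in RefSeq. The variant CACGCG was found in 15 of 43 (34.9%), against 9.27% of all. CCGGAA, the core of sites for ETS transcription factors, was found in 20 of 43 (46.5%), against 14.9% of all. Neither E-box form was found only in genes that moved one way. CACGTG was in 1 of 6 genes that rose (Mybbp1a), in 2 of 8 that fell (Utp18 and Wdr43) and in 4 of 24 that were not called. CACGCG was in 4 of 6 that rose, 3 of 8 that fell and 7 of 24 that were not called. For CCGGAA the counts were 2 of 6, 4 of 8 and 12 of 24. These matches describe letters in a window and are no evidence of binding. The promoters compared were not matched for base composition, and its part in these shares was not tested.

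Signals are log2 values as the authors deposited them, and differences are PIM1 minus EV. A gene was called where the adjusted p of the limma test over all genes was under 0.05. This held for 27% of all genes, with 16.1% rising and 10.9% falling, the shares to set beside each count below. Pim1 itself read 7.11, 6.89 and 6.97 on the PIM1 arrays, against 5.26, 6.25 and 5.23 on the EV arrays (difference 1.41, adjusted p = 0.00456). A dimmer Pim1 probe set read 3.06, 3.32 and 2.61 in PIM1, against 2.05, 2.27 and 2.64 in EV, with overlap, and was not called (0.68, adjusted p = 0.0933 over all probe sets). The labels do not say whether the probes read the introduced sequence. Array medians over all probe sets were 3.38 to 3.42 in PIM1 and 3.49 to 3.52 in EV. Over the genes tested they were 3.98 to 4.03 in PIM1 and 3.99 to 4.03 in EV. The median centring given below used the medians over all probe sets. Markers of the labelled epithelial cell type were mixed: of 12 luminal markers 3 rose and 3 fell, and of 7 basal markers 0 rose and 3 fell. The mean log2 signal of the luminal markers was 4.32 to 4.40 in PIM1 and 4.59 to 4.74 in EV. That of the basal markers was 4.45 to 4.49 in PIM1 and 5.15 to 5.22 in EV. Epcam was dim in both groups, at 2.28 to 2.41 in PIM1 and 2.47 to 2.51 in EV. The luminal keratin gene Krt18 was lower in PIM1 cells, at 4.79 to 5.02 in PIM1 against 9.09 to 9.21 in EV (difference -4.24, adjusted p = 1.86e-07). The basal integrin gene Itga6 fell by 2.10 (adjusted p = 4.86e-06), while Cd24a rose by 1.65 (adjusted p = 0.000170). Of 12 fibroblast markers 9 rose and 1 fell (83.3% called, against 27% of all genes). Their mean log2 signal was 8.14 to 8.20 on the PIM1 arrays and 6.53 to 6.58 on the EV arrays. Dcn rose by 5.48 and Pdgfra by 4.70 (adjusted p = 9.69e-08 and 5.84e-07), while Fap fell by 0.47 (adjusted p = 0.0117). Of 9 leukocyte markers 0 rose and 1 fell: Csf1r read 3.61 to 4.06 in PIM1 against 5.09 to 5.29 in EV (difference -1.35, adjusted p = 0.000210), while Ptprc was dim in both, at 1.73 to 1.99 in PIM1 and 1.95 to 2.24 in EV. The mean log2 signal of 8 endothelial markers was 2.60 to 2.79 in PIM1 and 2.76 to 2.90 in EV, and that of 6 smooth muscle markers, of which 1 rose and 2 fell, was 4.14 to 4.25 in PIM1 and 4.56 to 4.77 in EV. The part of these markers in the results below was not tested. In such bulk RNA, fewer cells of a type and less RNA per cell cannot be told apart.

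The nucleolar genes did not move as a block. Of 44 measured, 6 rose and 9 fell in PIM1 cells, and 29 were not called. The 15 called are 34.1% of the members, where 27% of all genes were called. That share was not far from the one over all genes, most of which were dimmer than the members. Those that rose were 13.6% of the members (16.1% of all genes), and those that fell were 20.5% (10.9% of all genes). The median member difference was -0.0055, against -0.053 over all genes. The member quartiles of -0.24 and 0.20 were close to the quartiles of all genes, -0.24 and 0.21. All 44 members were among the 11090 genes above the median signal, where the median difference was 0.10. In a fit of those genes alone 53.3% were called, and 64.9% of the called genes rose. There 9 members rose and 12 fell. Only Npm1 was both called and changed at least 2-fold, which held for 6.26% of all genes. PIM1 and EV arrays were fully separated for 27 of 44 members (61.4%) and for 43.2% of all genes. The balance of rises and falls depended on how the arrays were scaled. In the main fit 59.6% of all called genes rose. When arrays were centred on their medians 9 members rose and 6 fell, where 73.5% of all called genes rose. After quantile normalization 4 members rose and 13 fell, where 56.0% of all called genes rose. Without PIM1 replicate 1 the member counts were 2 and 5, without PIM1 replicate 2 they were 3 and 4. Without EV replicate 1 they were 3 and 7. Those fits called 19.2%, 18.8% and 24.2% of all genes, in that order, against 27% in the main fit.

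**Figure D1:**
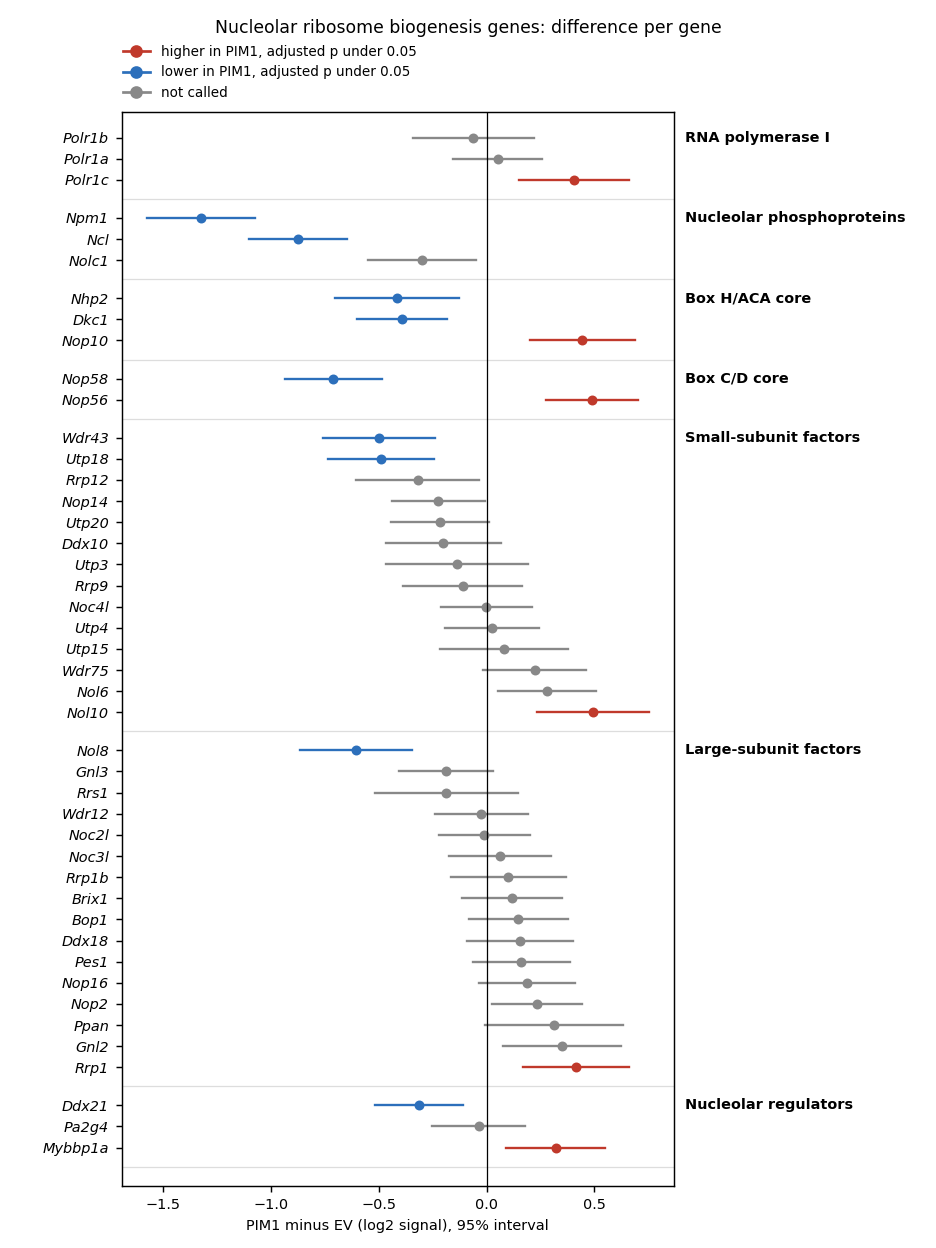
Difference between PIM1 and EV (log2 signal) for the 44 measured genes, grouped by role. Points are the fitted differences, bars their 95% intervals (3 arrays per group), red and blue mark genes with adjusted p under 0.05. Npm1 lies farthest to the left at -1.32, and red and blue points occur together in the snoRNP groups.

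Of 3 measured genes for abundant nucleolar phosphoproteins, 2 fell. Npm1 encodes nucleophosmin, a histone chaperone that carries ribosomal particles and helps organise the nucleolus. It read 9.97, 10.15 and 9.92 on the PIM1 arrays, against 11.45, 11.26 and 11.29 on the EV arrays. All PIM1 arrays lay more than 1 log2 unit below all EV arrays, and the difference of -1.32 (standard error 0.109, adjusted p = 7.06e-05) corresponds to a 2.50-fold lower signal. A dimmer probe set of Npm1 also fell, by 1.69 (adjusted p = 0.000747 over all probe sets). Ncl encodes nucleolin, which binds nascent ribosomal RNA and chromatin. Its signal was 9.56, 9.56 and 9.52 in PIM1, against 10.52, 10.42 and 10.31 in EV. The groups were well apart, and the difference was -0.87 (standard error 0.099, adjusted p = 0.000399), 1.83-fold lower. Nolc1, a chaperone of snoRNPs that shuttles between nucleolus and cytoplasm, read 8.36 to 8.51 in PIM1 and 8.66 to 8.89 in EV. Its groups did not overlap, but the difference of -0.30 did not pass (adjusted p = 0.0782). It passed after quantile normalization (-0.37, adjusted p = 0.0393) and cyclic loess (-0.36, adjusted p = 0.0426).

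All 5 measured members that encode snoRNP core proteins were called, where 27% of all genes were. In both kinds of particle these members moved in opposite directions. Nop56 and Nop58 encode paired proteins that sit side by side in every box C/D particle. Nop56 rose: it read 10.22, 10.18 and 10.28 in PIM1, against 9.69, 9.80 and 9.73 in EV, a difference of 0.49 (standard error 0.093, adjusted p = 0.00589). Nop58 fell: it read 9.10, 8.99 and 9.13 in PIM1, against 9.87, 9.74 and 9.75 in EV, a difference of -0.71 (standard error 0.098, adjusted p = 0.00109). For both genes PIM1 and EV arrays were fully separated. The gap between them on the same array, Nop56 minus Nop58, was 1.15 ± 0.03 in PIM1 and -0.04 ± 0.12 in EV (SD, n = 3 each). That gap only describes the pair, since both genes were already called in opposite directions. An exact two-sided permutation test of the gap gave p = 0.10, the lowest value that 3 arrays against 3 allow. Both other probe sets named Nop56 were dimmer and were not called (0.30 and 0.53, adjusted p = 0.127 and 0.188 over all probe sets).

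Both box C/D genes carry small nucleolar RNAs within their borders, and 3 of these had a probe set. Snord110, which lies within Nop56, read 10.67, 10.95 and 10.43 in PIM1, against 9.14, 9.12 and 9.14 in EV. It rose by 1.55 (adjusted p = 0.000964 over all probe sets), where its host rose by 0.49. Snord70, within Nop58, read 7.57, 7.80 and 6.70 in PIM1, against 5.88, 5.44 and 5.92 in EV. It rose by 1.61 (adjusted p = 0.0130 over all probe sets) while Nop58 fell. Snord11, also within Nop58, differed by 0.21 and was not called (adjusted p = 0.404).

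**Figure D2:**
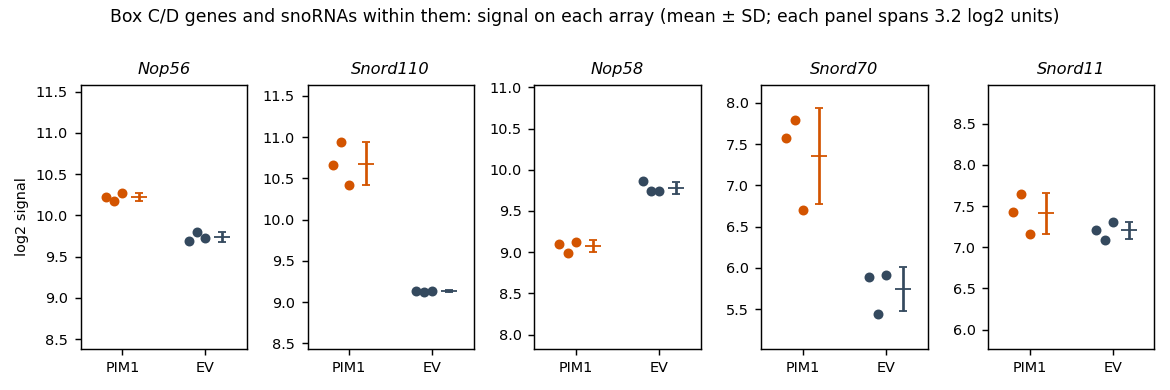
Log2 signal on each array for the box C/D protein genes Nop56 and Nop58 and for small nucleolar RNAs within them, PIM1 left and EV right, with mean ± SD beside the points. Nop56, Snord110 and Snord70 are higher in PIM1, Nop58 is lower, and the groups overlap for Snord11.

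Among the members for box H/ACA particles, which also occur in telomerase, 1 core gene rose and 2 fell. Gar1, a further core gene outside the member list, differed by 0.24, with overlap, and was not called (adjusted p = 0.234). Dkc1, the gene of the pseudouridine synthase dyskerin, read 7.98, 7.99 and 8.02 in PIM1, against 8.34, 8.43 and 8.40 in EV. The difference was -0.39 (standard error 0.091, adjusted p = 0.0146). Nhp2, which encodes an RNA-binding protein of the same particle, read 7.78, 7.86 and 7.67 in PIM1, against 8.30, 8.30 and 7.96 in EV, a difference of -0.42 (adjusted p = 0.0408). Nop10 encodes the small protein that binds dyskerin directly. It rose, with 9.19, 9.14 and 9.20 in PIM1 against 8.75, 8.59 and 8.86 in EV, a difference of 0.44 (standard error 0.105, adjusted p = 0.0159). On the same array Nop10 minus Dkc1 was 1.18 ± 0.04 in PIM1 and 0.34 ± 0.17 in EV (SD, n = 3 each). This gap is likewise a description of genes already called, and the same permutation test gave p = 0.10. Dkc1 did not pass without PIM1 replicate 1 or 2 (adjusted p = 0.0608 and 0.0562) or after median centring (0.0548), and Nop10 did not pass without PIM1 replicate 1 (0.0599). Nhp2 did not pass after median centring (0.0954), without any one PIM1 array (0.105, 0.0764 and 0.119 for replicates 1, 2 and 3), or without EV replicate 1 (0.104) or EV replicate 2 (0.107).

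**Figure D3:**
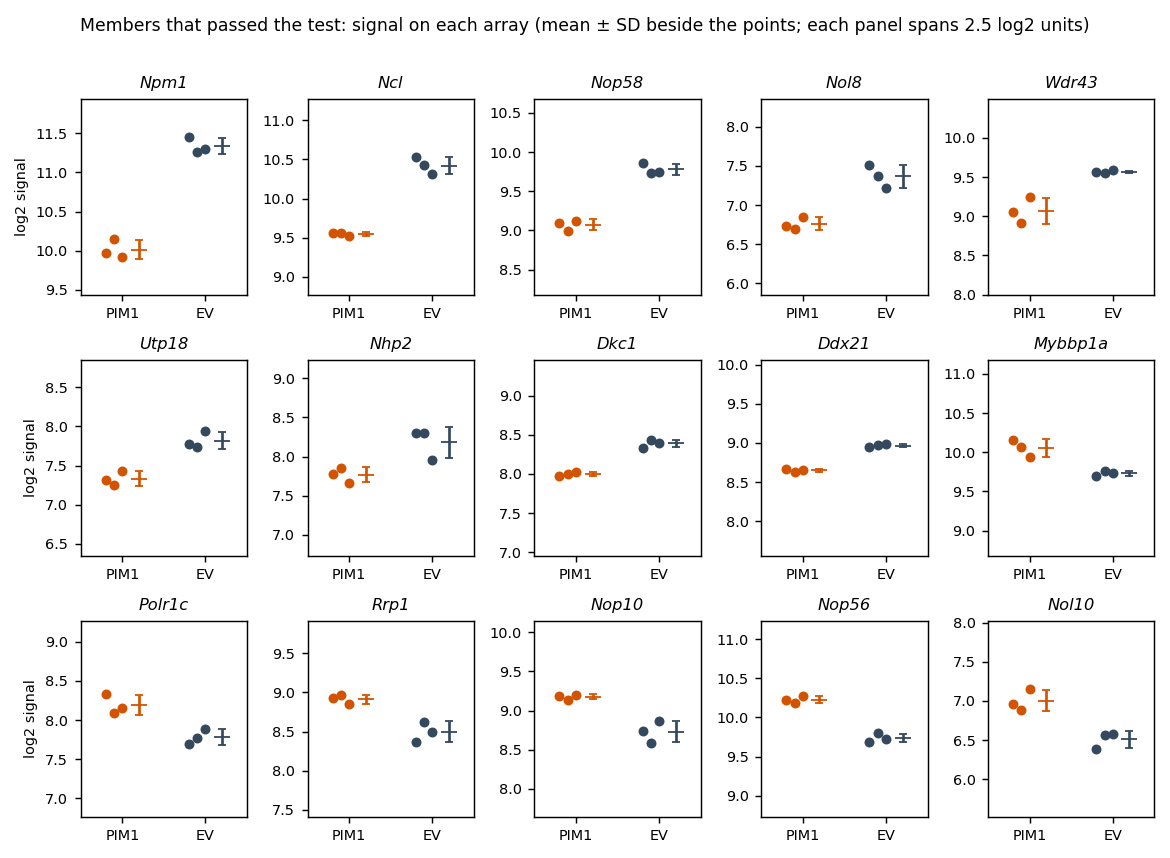
Log2 signal on each array for the 15 genes that passed the test, ordered from the strongest fall (Npm1) to the strongest rise (Nol10), PIM1 left and EV right, with mean ± SD beside the points. Every panel has the same span; the groups do not overlap in any panel, and only Npm1 differs by more than 1 log2 unit.

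Of the 3 measured RNA polymerase I subunit genes 1 rose, and 2 were not called. Polr1a, the gene of its largest, catalytic subunit, read 8.74, 8.71 and 8.69 in PIM1, against 8.68, 8.63 and 8.67 in EV. The difference of 0.052 had a 95% interval of -0.15 to 0.26 and was not called (adjusted p = 0.709). Polr1b, which encodes the other large subunit, differed by -0.062 with an interval of -0.34 to 0.22 (adjusted p = 0.748). Polr1c, whose product also serves RNA polymerase III, read 8.34, 8.09 and 8.15 in PIM1, against 7.70, 7.77 and 7.89 in EV. It rose by 0.41 (standard error 0.110, adjusted p = 0.0280). This call was lost after quantile normalization (0.0837) and cyclic loess (0.0606), without any one PIM1 array (0.109, 0.0505 and 0.0577 for replicates 1, 2 and 3), and without EV replicate 1 (0.0739) or EV replicate 2 (0.0632).

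Among 14 small-subunit factors 1 rose and 2 fell, and the median difference was -0.12. Wdr43 encodes a WD-repeat protein of the subcomplex that first binds the precursor RNA. Its signal was 9.05, 8.91 and 9.25 in PIM1, against 9.56, 9.55 and 9.58 in EV (difference -0.50, standard error 0.112, adjusted p = 0.0129). Utp18, a processome WD-repeat protein known from yeast to bring the exosome to the particle, read 7.31, 7.25 and 7.43 in PIM1, against 7.78, 7.74 and 7.95 in EV (difference -0.49, adjusted p = 0.0110). Both genes were lower on every PIM1 array. Nol10, which acts in the same assembly, went the other way, with 6.97, 6.89 and 7.15 in PIM1 against 6.39, 6.56 and 6.58 in EV (difference 0.49, standard error 0.113, adjusted p = 0.0138). Wdr43 did not pass without PIM1 replicate 1 or 2 (adjusted p = 0.0507 and 0.0553), nor did Utp18 without PIM1 replicate 2 (0.0516).

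The other 11 small-subunit genes lay between -0.32 for Rrp12, an export factor, and 0.28 for Nol6. Nol6 read 8.12, 7.92 and 8.06 in PIM1, against 7.79, 7.75 and 7.72 in EV, without overlap (adjusted p = 0.0692). Nop14 (-0.22), the very large scaffold protein gene Utp20 (-0.21) and the helicase gene Ddx10 (-0.20) had negative differences, and Wdr75 (0.22) a positive one, none of them called. Utp3 (-0.14), Rrp9 (-0.11), Utp15 (0.08), Utp4 (0.02) and Noc4l (-0.00041) were closest to no difference.

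Of 16 large-subunit factors 1 rose and 1 fell, with a median difference of 0.13. Nol8, a nucleolar RNA-binding protein gene, read 6.74, 6.69 and 6.85 in PIM1, against 7.52, 7.37 and 7.21 in EV. It fell by 0.60 (standard error 0.113, adjusted p = 0.00534). Rrp1, whose yeast counterpart acts in large-subunit maturation, read 8.93, 8.96 and 8.85 in PIM1, against 8.36, 8.63 and 8.50 in EV, a rise of 0.42 (adjusted p = 0.0217). Its paralogue Rrp1b differed by 0.10 and was not called (adjusted p = 0.567). The Rrp1 call was lost without PIM1 replicate 1 (0.0751), PIM1 replicate 2 (0.0825) or EV replicate 1 (0.0581). The nucleolar GTPase gene Gnl2 read 8.31, 8.08 and 8.31 in PIM1, against 7.80, 8.06 and 7.79 in EV, without overlap, and its difference of 0.35 did not pass (adjusted p = 0.0639). It passed without EV replicate 2 (0.44, adjusted p = 0.0371). Nop2, which encodes a methyltransferase of ribosomal RNA, differed by 0.23 (adjusted p = 0.0963).

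Pes1, Bop1 and Wdr12, whose products form one complex needed for the large subunit, differed by 0.16, 0.15 and -0.024 and were not called. Gnl3, which encodes the stem-cell GTPase nucleostemin, read 8.68, 8.58 and 8.73 in PIM1, against 8.88, 8.83 and 8.83 in EV. The groups did not overlap, but the difference of -0.19 was not called (adjusted p = 0.187). Ppan (0.31), Nop16 (0.19), the helicase gene Ddx18 (0.16), Brix1 (0.12), Noc3l (0.06), Noc2l (-0.010) and Rrs1 (-0.19) were not called either. Across all roles, 29 measured members were not called, and for 26 of them the 95% interval lay within 1.5-fold in either direction. The exceptions were Rrp12, Gnl2 and Ppan. That bound does not set uncalled genes apart, since called members such as Dkc1 (1.31-fold) and Ddx21 (1.24-fold) also differed by less. Of the 29, 12 had groups that did not overlap and 6 had an unadjusted limma p under 0.05. Over all genes, called or not, 43.2% had groups that did not overlap. The same shares among all uncalled genes were not worked out, so neither count is a result about the members.

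Of 3 regulators with a nucleolar home 2 were called, in opposite directions. Ddx21, an RNA helicase that senses polymerase activity and aids snoRNA release, read 8.67, 8.64 and 8.66 in PIM1, against 8.95, 8.97 and 8.99 in EV (difference -0.31, standard error 0.089, adjusted p = 0.0333). Mybbp1a, a Myb-binding protein and regulator of ribosomal RNA synthesis, read 10.16, 10.07 and 9.94 in PIM1, against 9.70, 9.76 and 9.73 in EV (difference 0.32, adjusted p = 0.0460). Pa2g4, which encodes a growth-regulating protein that binds ribosomal RNA, differed by -0.036 (interval -0.25 to 0.18, adjusted p = 0.818). The Ddx21 call was lost without any single array (adjusted p = 0.0581 to 0.110) and after median centring (0.137), and the mean of its probe sets had the other sign (0.15, adjusted p = 0.516). The Mybbp1a call was lost after quantile normalization (0.0737) and cyclic loess (0.0613), without PIM1 replicate 1 (0.164) or PIM1 replicate 2 (0.130), and without any one EV array (0.0966, 0.0764 and 0.0914 for replicates 1, 2 and 3).

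The rest of the pathway was examined with 115 further ribosome biogenesis genes, of which 106 had a probe set of their own. Of these 18 rose and 12 fell, 28.3% against the 27% called among all genes, with a median difference of 0.10. In the fit of genes above the median signal, where 53.3% were called and 64.9% of those rose, 24 of the 106 rose and 17 fell. Fibrillarin, the box C/D methyltransferase, was not analysed here, since its probe set carries several symbols. The scaling moved the split of 18 and 12 as well, to 25 and 4 after median centring and to 9 and 18 after quantile normalization. Without PIM1 replicate 1 it was 7 and 4, without PIM1 replicate 2 it was 9 and 3, and without EV replicate 1, 2 or 3 it was 13 and 6, 15 and 7, and 13 and 5. Without PIM1 replicate 3 it was 12 and 11. The fits without 1 array called 18.8% to 24.2% of all genes. Of all called genes, 73.5% rose after median centring and 56.0% after quantile normalization.

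Of 12 snoRNP assembly and further core genes 3 rose and 1 fell, 33.3% called against the 27% of all genes. Naf1, which encodes the factor that assembles H/ACA particles before they mature, read 6.47, 6.34 and 6.57 in PIM1, against 8.10, 7.58 and 7.27 in EV. It fell by 1.19 (standard error 0.198, adjusted p = 0.00300), in the direction of Dkc1 and Nhp2. Shq1, the gene of a chaperone that holds free dyskerin, read 5.74, 5.69 and 6.09 in PIM1, against 5.06, 5.18 and 5.45 in EV. It rose by 0.61 (adjusted p = 0.0185), and the call was lost without PIM1 replicate 3 (0.0565) or EV replicate 1 (0.0550). For box C/D, the assembly factor gene Nufip1 rose by 0.39 (adjusted p = 0.0192) and the core protein gene Snu13 by 0.33 (adjusted p = 0.0383), with all PIM1 arrays above all EV arrays for both. Nufip1 did not pass without PIM1 replicate 1 (0.0838), PIM1 replicate 2 (0.0626) or EV replicate 3 (0.0508). Snu13 passed only without PIM1 replicate 3, with adjusted p from 0.0735 to 0.143 when any other array was left out, and both calls were lost after quantile normalization (0.0855 for Nufip1 and 0.0626 for Snu13).

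Of 9 other polymerase I genes 1 rose and 1 fell. Ubtf encodes the factor that keeps ribosomal DNA in an active state. It read 9.22, 9.20 and 9.11 in PIM1, against 8.75, 8.79 and 8.78 in EV, and rose by 0.41 (adjusted p = 0.0131). Taf1d, of the promoter selectivity factor, fell by 0.38 (adjusted p = 0.0371), on the brightest of 11 probe sets. The Ubtf call was lost without PIM1 replicate 1 or 2 (0.0596 and 0.0549). That of Taf1d was lost without any one PIM1 array (0.0618, 0.0808 and 0.0973 for replicates 1, 2 and 3), without EV replicate 2 (0.0778) or EV replicate 3 (0.0970), after quantile normalization (0.0669) and after median centring (0.104).

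Among 36 other small-subunit genes 5 rose and 5 fell. Aatf, which in human cells forms a nucleolar complex with the product of Nol10, read 7.37, 7.36 and 7.44 in PIM1, against 8.12, 8.20 and 8.14 in EV. It fell by 0.76 (standard error 0.092, adjusted p = 0.000552), whereas Nol10 rose. Wdr46 rose by 0.56, Rrp7a by 0.55 and Rcl1 by 0.44 (adjusted p = 0.00568, 0.00625 and 0.0112). The falls besides Aatf were those of Heatr1 (-0.41), Esf1 (-0.53), the kinase gene Riok1 (-0.36) and Mphosph10 (-0.31), with adjusted p from 0.0255 to 0.0494. These 4 were lost without PIM1 replicate 1 (adjusted p = 0.0625, 0.100, 0.160 and 0.172) or PIM1 replicate 2 (0.101, 0.0888, 0.147 and 0.0967), as they were without EV replicate 3 (0.0718, 0.0888, 0.0941 and 0.123), and Esf1, Riok1 and Mphosph10 also without EV replicate 1 (0.0554, 0.0509 and 0.0915) or EV replicate 2 (0.0611, 0.120 and 0.0607). Mphosph10 did not pass without PIM1 replicate 3 (0.0814) either, and Rcl1 did not without PIM1 replicate 2 (0.0509) or after quantile normalization (0.0666). After median centring 4 of the 106 other ribosome biogenesis genes were called lower, against 12 in the main fit. Most of those 12 falls, which include the ones named here, were thus lost there.

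In the large-subunit pathway 8 of 37 other genes rose and 4 fell. Wdr74, a WD-repeat protein gene, read 9.33, 9.31 and 9.33 in PIM1, against 8.25, 8.39 and 8.42 in EV. The rise of 0.97 (standard error 0.096, adjusted p = 0.000192), 1.96-fold, was the largest among the 106. The helicase gene Ddx51 rose by 0.50 (adjusted p = 0.0102) and Sdad1 by 0.41 (0.0168). The falls were those of the GTPase gene Gtpbp4 (-0.43), Rrp15 (-0.43), the AAA ATPase gene Mdn1 (-0.40) and Tex10 (-0.36), with adjusted p from 0.0142 to 0.0315. Without PIM1 replicate 2 all 4 falls were lost (adjusted p = 0.0649, 0.0743, 0.0955 and 0.113). Without PIM1 replicate 1 Gtpbp4 (0.0591), Mdn1 (0.0627), Tex10 (0.117) and Sdad1 (0.0603) did not pass, nor did Rrp15 without PIM1 replicate 3 (0.0632), and Rrp15, Mdn1 and Tex10 were also lost without EV replicate 1 (0.0572, 0.0564 and 0.0663). Mdn1 and Tex10 did not pass without EV replicate 3 (0.0634 and 0.0764), nor Tex10 without EV replicate 2 (0.0537). The loss of most falls after median centring, from 12 to 4 among the 106, applies to these lists together.

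The exosome trims the ends of ribosomal RNA precursors. Of its 12 measured genes 1 rose and 1 fell. Dis3, a catalytic ribonuclease, read 8.66, 8.67 and 8.90 in PIM1, against 9.66, 9.73 and 9.77 in EV. It fell by 0.98 (standard error 0.107, adjusted p = 0.000324), while the ring subunit gene Exosc8 rose by 0.49 (adjusted p = 0.0174). Exosc8 did not pass without PIM1 replicate 1 or 3 (0.0592 and 0.0597).

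**Figure D4:**
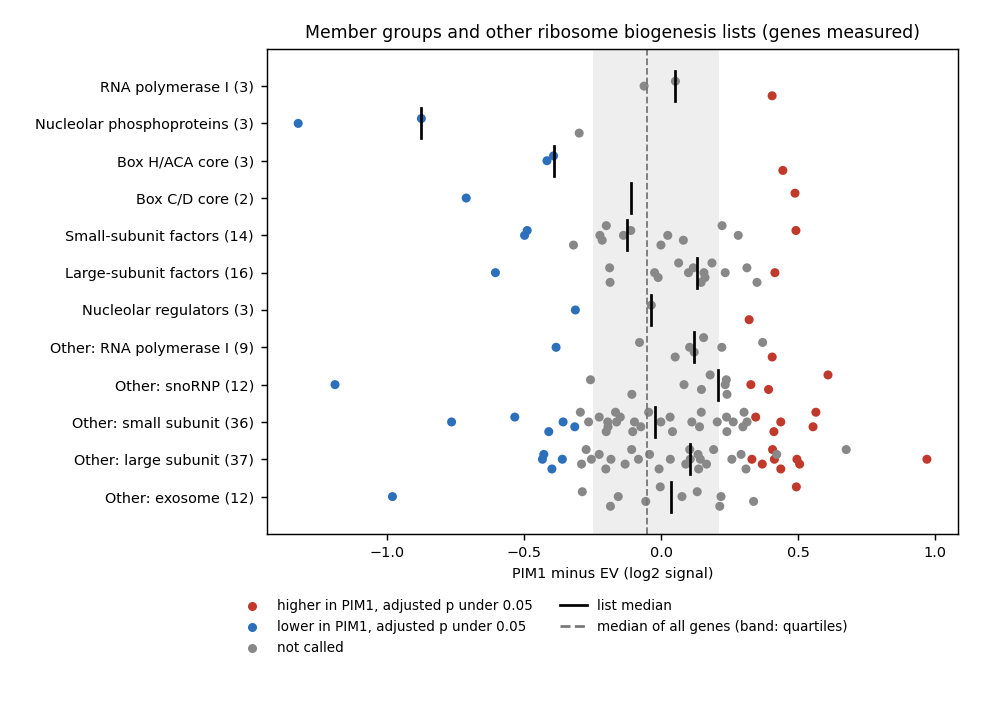
Difference between PIM1 and EV (log2 signal) for each measured gene in the 7 role groups and in the 5 lists of other ribosome biogenesis genes. Black ticks are list medians, the dashed line and grey band the median and quartiles of all genes. Rises and falls occur in nearly every list, and the medians of the larger lists lie within the band.

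Myc, the transcription factor best known for driving these genes, read 8.86, 8.91 and 8.86 in PIM1, against 9.06, 8.86 and 8.91 in EV. Its difference of -0.065 had a 95% interval of -0.29 to 0.16 and was not called (adjusted p = 0.668). Among its partners and antagonists, Max, Mxd1, Mxi1 and Mxd4 rose. Max, the obligate dimer partner, read 8.30, 8.45 and 8.36 in PIM1, against 7.38, 7.57 and 7.67 in EV, a rise of 0.83 (adjusted p = 0.000947). Mxd1, Mxi1 and Mxd4 encode repressors that compete with MYC for MAX, and every PIM1 array lay above every EV array for these. Mxd4 read 7.09, 7.04 and 7.15 in PIM1, against 5.72, 6.05 and 5.86 in EV (rise of 1.21, standard error 0.114, adjusted p = 0.000149). Mxi1 rose by 0.78 and Mxd1 by 0.77 (adjusted p = 0.00242 and 0.00350), whereas Mxd3 differed by -0.35 and was not called (adjusted p = 0.162). Mycn fell by 0.59 at a low signal, with 3.41, 3.06 and 3.02 in PIM1 against 3.88, 3.61 and 3.76 in EV (adjusted p = 0.0144), and did not pass without PIM1 replicate 2 or 3 (0.0607 and 0.0542). In all, 4 of 12 genes of this network rose and 1 fell, 41.7% called against the 27% of all genes. Mycl, Mnt, Mga, Mlx and Mlxip were not called.

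**Figure D5:**
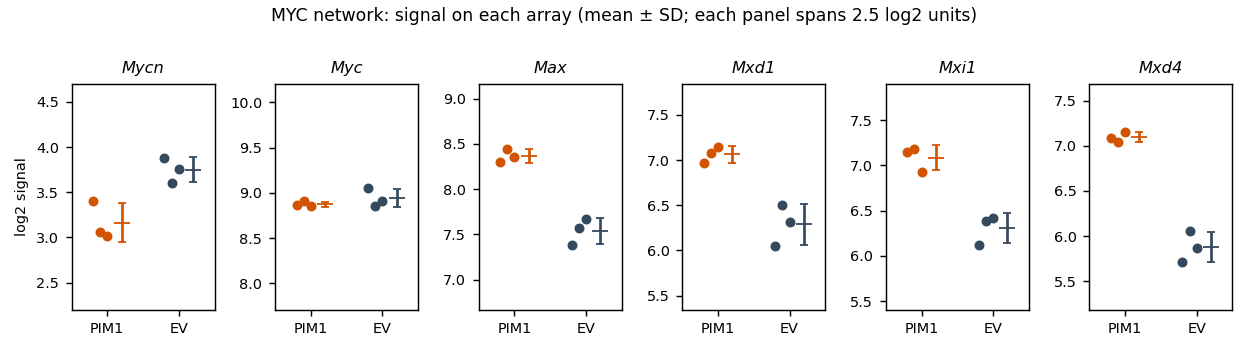
Log2 signal on each array for Myc and the 5 network genes that passed the test, PIM1 left and EV right, with mean ± SD beside the points. Max, Mxd1, Mxi1 and Mxd4 are higher in PIM1, Mycn is lower, and the groups overlap for Myc.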

How the data were processed

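RNA of 6 samples was hybridised to Affymetrix whole-transcript mouse arrays, 1 array a sample, per the labels' protocols. The deposited values are 1 number for each of 41345 probe sets and were taken as log2 signals from their range. The submitters' processing notes name Affymetrix Expression Console. How background, summarization and normalization were handled remains unknown, as no source used here gives it, and nothing was scaled again for the main result. The arrays' number limits the precision.

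Groups come from the sample titles. Probe sets were named from the platform annotation (23521 with 1 symbol, 1814 with several, 16010 with none) and matched by Entrez identifier to RefSeq GRCm38.p6 (23328 matched), which left 22180 genes. A linear model with 1 term, group, was fitted to each gene (limma 3.58.1, lmFit and eBayes, R 4.3.3). Tests were two-sided, and p-values were adjusted by Benjamini-Hochberg over all genes. Other probe sets and snoRNAs were tested in a fit over all 41345. The code was tested on simulated data. Of 20 snoRNA genes within the borders of members, 9 had a probe set of their own.

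Named genes are the members with the smallest p in each role, Npm1, Ncl and Polr1a, members called against the majority, and by the same rule those of the other lists. Members and lists were chosen with earlier results of these data known, and the motifs were chosen after values were seen. Of the other lists, Polr1f, Polr1g and Polr1h matched no symbol. Alternatives were quantile normalization, centring on array medians, cyclic loess, a trended and robust variance, genes above the median signal only, the mean of probe sets, a replicate block and leaving out each array.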

Additional observations from a re-analysis of the deposited data

Results flagged for a closer look

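Probe sets outside the main comparison that belong to these genes were read for signal above the EV arrays, and 3 were called higher. Those read were the dimmer probe sets of members and the probe sets of 9 snoRNAs within members. Falls were not counted here, such as that of the dimmer Npm1 probe set (-1.69, adjusted p = 0.000747 over all probe sets). The share of all 41345 probe sets that rose in this fit was not worked out. The dimmer probe set of Ppan rose by 0.51 (adjusted p = 0.0181 over all probe sets), while the brightest differed by 0.31 and was not called. Snord110 within Nop56 rose by 1.55 and Snord70 within Nop58 by 1.61.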

How the results depend on the processing

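Of the 15 members called, 6 kept their call in all 13 alternatives: Npm1, Ncl, Nop56, Nop58, Nol10 and Nol8. The median member difference was -0.067 after quantile normalization, -0.057 after cyclic loess and 0.093 after median centring, where the median of all genes was 0.0052, 0.012 and 0.045. Of the other ribosome biogenesis genes 9 rose after quantile normalization and 11 after cyclic loess, and 4 fell after median centring. Leaving out 1 array gave 2 to 6 members that rose and 4 to 8 that fell, a member median of -0.031 to 0.032, 7 to 15 other genes that rose and 3 to 11 that fell, and 4167 to 5369 calls among all genes. Small differences that were not called changed sign: Polr1a was -0.019 after quantile normalization and -0.0050 after cyclic loess, Polr1b 0.036 after median centring and -0.13 to 0.046 when 1 array was left out (positive without EV replicate 3), and after median centring Pa2g4 was 0.063 and Myc 0.033. Ddx21 was 0.15 as the mean of its probe sets. Same-numbered arrays did not deviate together (correlations of 0.056, -0.031 and 0.0088), so the numbers do not pair the samples. With the replicate block 4 members rose, 8 fell and 5321 of all genes were called, and Ddx21, Mybbp1a and Polr1c lost their calls. Probe sets have no detection call here, and how much of a low signal such as that of Mycn is background is unknown.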

Other observations

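Several members have more than 1 probe set, and these did not always move together. For Rrs1 the brightest differed by -0.19 and a dimmer one by 0.44 (adjusted p = 0.0694 over all probe sets). For Ddx18 the values were 0.16 and -0.39, and for Ddx21 -0.31 and 0.61, with the dimmer sets at adjusted p = 0.195 and 0.214.

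Other snoRNAs within members were not called. Snord82 within Ncl read 10.94, 10.97 and 10.25 in PIM1 and 10.67, 10.61 and 10.71 in EV, a difference of 0.054, while Ncl fell by 0.87. Snora75, also within Ncl, differed by -0.23. Within Wdr43 Snord92 differed by -0.69 (adjusted p = 0.130) and Snord53 by -0.072, and within Gnl3 Snord69 differed by -0.54 and Snord19 by 0.30.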
